A study of Mus musculus with 8 samples.

Results

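OGT, the X-linked enzyme that attaches O-GlcNAc to serine and threonine residues of intracellular proteins, works in the nucleus largely together with chromatin regulators. It was followed here through 10 genes that encode such partners, chosen by gene symbol: Tet1, Tet2, Tet3, Hcfc1, Sin3a, Bap1, Asxl1, Asxl2, Ezh2 and Foxk1. All 10 were found among the 23521 entries of the deposited table with a number in every library, and all 10 were among the 12629 entries with a mean of at least 1 FPKM (sequenced fragments divided by transcript length and by the size of the library), on which tests were run. RNA came from whole hearts at E11.5 (embryonic day 11.5). There were 4 libraries from control hearts, described as littermates, and 4 from cKO hearts. In cKO hearts a floxed Ogt allele had been deleted by Cre expressed from the cardiac Troponin T promoter (Ogt f/y with TnT-Cre). The labels give the strain background of both groups as B6, whereas the methods of the study describe a mixed background. The genotype of each control heart is not stated, and neither is whether the hearts came from separate litters. TnT-Cre acts in cardiomyocytes, so endothelial, epicardial, cushion and blood cells of a cKO heart still carried a functional gene, and a transcript level in the whole heart is a sum over all of these cells.

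The partners fall into a few complexes. TET proteins oxidise methylated cytosine in DNA, and OGT binds them and is brought to chromatin with them. HCF-1, the product of Hcfc1, is a scaffold that links transcription factors to histone methyltransferases, and OGT both modifies it and cuts it into its mature fragments. SIN3A is the scaffold of a histone deacetylase co-repressor that can carry OGT to promoters. BAP1 removes ubiquitin from histone H2A as the catalytic subunit of the PR-DUB complex, in which ASXL1 or ASXL2 activates it and FOXK1, a forkhead factor, helps to bring it to DNA. EZH2 is the catalytic subunit of Polycomb repressive complex 2 (PRC2), which methylates histone H3 and keeps developmental genes silent.

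Bap1 and Hcfc1 transcripts were higher in cKO hearts, and Ezh2 and Sin3a transcripts were lower. The 3 Tet genes, Asxl1, Asxl2 and Foxk1 did not pass the test. Thus 4 of the 10 partners were called, 2 in each direction, by limma at a Benjamini-Hochberg adjusted p under 0.05. Among all genes tested, 30.7% were called, 15.9% higher and 14.9% lower, so the share among the partners was close to that background. In 4 of the 10 the control and cKO libraries did not overlap, compared with 32.8% of all genes tested. The median log2 difference was 0.04 over the partners and 0.02 over all genes tested.

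Promoter sequences are shown for the 4 partners that were called, since they are the genes that the comparison turns on. They were taken from the RefSeq promoter table for mouse build GRCm38.p6 (mm10), which held 9 of the 10 genes, and were limited to the longest stretch within 250 bases before a RefSeq start that no annotated exon covers. Each is written 5′ to 3′ on the strand of its gene, with the motif matches in capitals. Bap1 lies on the plus strand of chromosome 14 and its stretch is chr14:31251318-31251449. Hcfc1 is on the minus strand of the X chromosome (chrX:73966358-73966607), Ezh2 on the minus strand of chromosome 6 (chr6:47595059-47595183) and Sin3a on the plus strand of chromosome 9 (chr9:57071967-57072039).
Bap1: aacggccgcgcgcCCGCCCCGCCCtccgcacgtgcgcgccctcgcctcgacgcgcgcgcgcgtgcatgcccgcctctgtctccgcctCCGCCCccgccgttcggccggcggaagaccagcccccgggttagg
Hcfc1: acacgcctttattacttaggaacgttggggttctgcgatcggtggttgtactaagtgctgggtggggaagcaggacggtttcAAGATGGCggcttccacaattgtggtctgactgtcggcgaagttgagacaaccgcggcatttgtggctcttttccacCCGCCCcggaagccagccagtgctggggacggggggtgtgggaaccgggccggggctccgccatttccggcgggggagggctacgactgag
Ezh2: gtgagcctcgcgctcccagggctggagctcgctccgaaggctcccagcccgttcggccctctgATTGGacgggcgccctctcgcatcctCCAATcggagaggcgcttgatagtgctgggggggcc
Sin3a: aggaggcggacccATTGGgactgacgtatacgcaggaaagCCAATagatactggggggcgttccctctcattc

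Capitals in these sequences mark a CCAAT box (CCAAT or its reverse complement ATTGG), a GC box (GGGCGG or CCGCCC) or a YY1 element (AAGATGGC), searched on both strands. The stretch of Ezh2 held a pair of CCAAT boxes, with a further match closer to the start and not shown. Sin3a also held a pair, before the first of its 2 RefSeq starts, and its 250 bases had a GC box farther upstream. The window before the other start, not shown, had 3 CCAAT boxes and 3 GC boxes. Neither of the higher partners had a CCAAT box in its 250 bases, while Bap1 had 3 GC boxes, of which the pair farthest from the start overlap by a base, and Hcfc1 had 1 GC box and 1 YY1 element. CCAAT was present in 33.8% of 32851 RefSeq promoters of the same length, the GC box in 32.7% and the YY1 element in 1.56%. These promoters were not matched for GC content, whose median over all promoters was 52.4%. It was 74.4% in the 250 bases of Bap1, 61.2% for Hcfc1, 63.6% for Ezh2 and 50.8% at the first start of Sin3a. Of the partners that were not called, Tet1, Tet2, Asxl1 and Asxl2 also had a GC box and no CCAAT box, and Tet3 had both. No TATA box (TATAAA) was found before any of the 9 genes, and this motif was present in 12.4% of all promoters. An ETS element (CCGGAAGT), a ZNF143 core (ACTACA), an NRF1 core (GCATGCGC) and an E2F element (TTTNNCGC) were searched for as well. None of them was found before a called partner. The only matches were a ZNF143 core and an E2F element at Asxl1 and an ETS element at Asxl2. These matches describe letters only, and binding was not measured.

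Ogt itself was measured first as a check of the labels. Control libraries 1 to 4 had 41.6, 43.3, 37.5 and 46.2 FPKM, and cKO libraries 1 to 4 had 20.1, 21.6, 24.7 and 21.5 FPKM. Every cKO library was therefore below every control library, with a log2 difference of -0.92 for Ogt (standard error 0.08; limma, adjusted p = 0.000149). Mgea5, the gene of the O-GlcNAc hydrolase, also fell by 0.92 on this scale, from 33.5 ± 0.743 to 17.5 ± 0.609 FPKM (SD, n = 4). All log2 differences are of FPKM + 0.5, cKO minus control, which understates the change of low genes.

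Control library 3 stood apart from the other control libraries in a way that follows transcript length, and it bears on several partners. Among genes whose longest coding transcript is at most 2000 bases, it was a median of 0.25 log2 units above the other controls, and among those over 8000 bases it was 0.27 below them (a median of -0.27). It was the lowest control library for 8 of the 10 partners, compared with 26.9% of all genes tested and 72.7% of the 1581 genes with a transcript over 6000 bases. Tet1, Tet2, Tet3, Hcfc1, Asxl1, Asxl2 and Foxk1 have transcripts of that length, from 6981 bases for Asxl1 to 14369 for Tet1, whereas those of Sin3a (5206 bases), Bap1 (3460) and Ezh2 (2787) are shorter. Control library 3 was 0.26 to 0.52 log2 units below the other controls in those 7 genes, with the widest gap in Hcfc1. The difference of each partner below is therefore given also without this library, as are those of other genes for which it stood far from the other controls. In their descriptions the libraries are named with 1 of 2 prefixes that the labels do not explain, and the value columns use the same prefix throughout. Differences within each prefix (2 control and 1 cKO library for one, 2 control and 3 cKO libraries for the other) are given where they bear on a result.

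**Figure D1:**
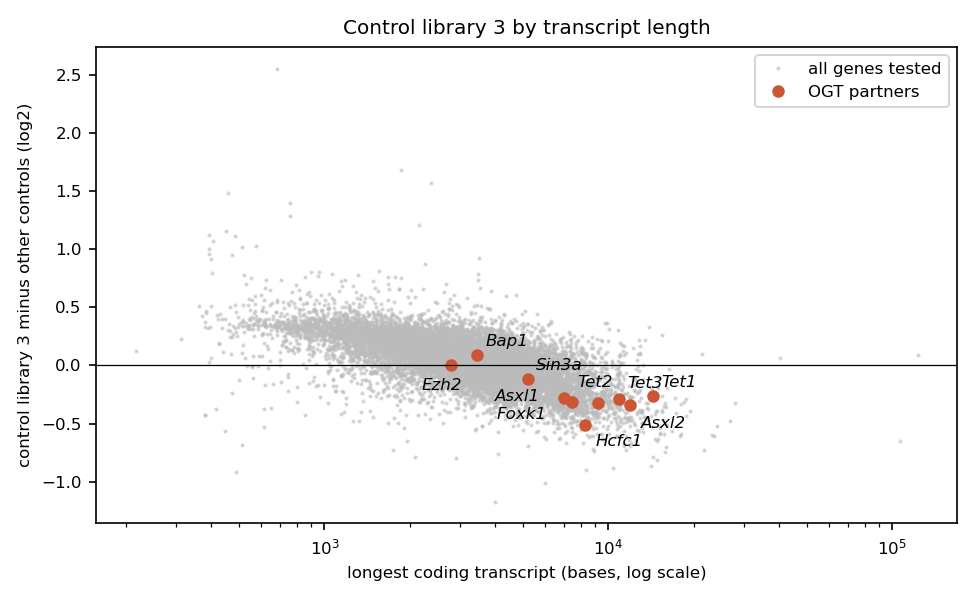
Difference between control library 3 and the mean of the other control libraries (log2 of FPKM + 0.5, y axis) against the longest coding transcript of each gene in bases (log scale, x axis), for all genes tested with a known length (grey) and the 10 partners (red). Bap1 and Ezh2 sit at or above 0, and the 7 partners over 6000 bases lie between -0.26 and -0.52.

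Bap1, the catalytic subunit of PR-DUB, had the largest difference among the partners. Its gene spans 31251489 to 31259929 on chromosome 14, and its longest coding transcript has 17 exons. The level in control libraries 1 to 4 was 26.8, 26.7, 27.9 and 25.0 FPKM, and in cKO libraries 1 to 4 it was 40.2, 38.9, 36.2 and 38.4 FPKM. The groups were thus well apart, with means of 26.6 ± 1.20 and 38.4 ± 1.64 FPKM (SD, n = 4). Bap1 was higher by 0.52 log2 units (95% interval 0.41 to 0.64, standard error 0.05; limma, adjusted p = 0.000255). Without control library 3 the difference was 0.55 (standard error 0.05), and within the prefixes it was 0.58 and 0.51. Leaving out any other single library gave values from 0.49 to 0.55, all called.

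The upstream neighbour of Bap1 moved the same way. Phf7, a PHD finger gene known mainly from male germ cells in mouse, is transcribed away from Bap1 on the opposite strand, and 270 bases separate the deposited spans of the 2 genes. Phf7 was singled out after its values were seen, among 6 genes whose deposited spans lie within 1000 bases of that of a partner. Control libraries had 3.03, 2.82, 3.48 and 2.97 FPKM of Phf7, and cKO libraries had 5.20, 5.17, 4.21 and 4.61 FPKM. Every cKO library was above every control library (log2 difference 0.57, standard error 0.08, adjusted p = 0.00142 from limma), and without control library 3 the difference was 0.62. The kit marks strand, but whether reads were assigned by strand is not given in the sources used here, and the deposited spans of the genes do not overlap. The other neighbours were Gm10658 at Sin3a (-0.21, adjusted p = 0.165), 2500004C02Rik at Asxl1 (0.12) and 1110002L01Rik at Asxl2 (-0.09), none of which was called by limma, and B230319C09Rik at Tet3 and Dnahc1 at Bap1, which were below 1 FPKM.

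The genes of the ASXL activators and of FOXK1 were not called with all 8 libraries. Asxl1, whose product activates BAP1 and which lies on chromosome 2 (153346139 to 153404007, 12 exons), had 13.8, 15.2, 11.9 and 14.7 FPKM in control libraries and 12.9, 13.0, 13.7 and 12.8 FPKM in cKO libraries. These values overlap, and the log2 difference of -0.08 (standard error 0.07, adjusted p = 0.462 from limma) was not called. Control library 3 was the lowest control library for Asxl1, and without it the difference was -0.15 (standard error 0.04) and was called lower (adjusted p = 0.0327). Asxl2, the second activator (chromosome 12, 3426857 to 3506849), ranged from 6.76 to 8.96 FPKM in control and from 8.41 to 9.08 FPKM in cKO hearts, and Foxk1 (chromosome 5, 142401497 to 142462015) from 6.83 to 9.19 and from 7.95 to 8.52 FPKM. Their log2 differences were 0.09 (standard error 0.08) and 0.02 (standard error 0.08). Without control library 3 they were 0.01 for Asxl2 and -0.06 for Foxk1, whose sign turned. Within the prefixes the difference of Foxk1 was -0.053 and 0.125.

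**Figure D2:**
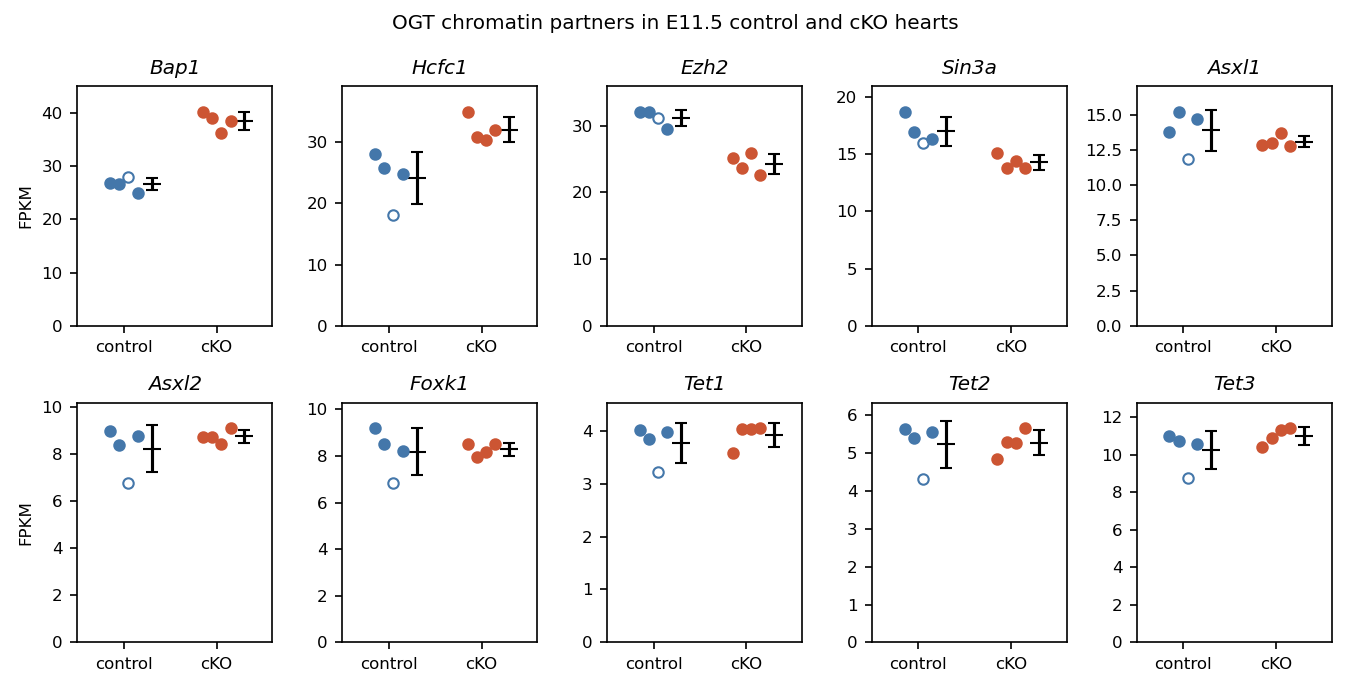
FPKM of the 10 partners in 4 control (blue) and 4 cKO (red) libraries, with 1 point per library and the mean ± SD beside each group (y axes in FPKM from 0, and the open point is control library 3). The groups are apart for Bap1, Hcfc1, Ezh2 and Sin3a, and control library 3 lies below the other controls for the Tet genes, Asxl1, Asxl2, Foxk1 and Hcfc1.

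Of the whole PR-DUB list, 12 of 13 genes were tested, 4 were higher and 1, Ogt, was lower, with a median of 0.13. The higher genes beside Bap1 and Hcfc1 were Kdm1b, a histone demethylase (3.50 to 4.17 FPKM, log2 difference 0.22, adjusted p = 0.0159 from limma), and Mbd6, a PR-DUB binding protein with a methyl-CpG binding domain (0.18, adjusted p = 0.0338 from limma), which lies outside the naming rule. Without control library 4, cKO library 2 or cKO library 3, 2 genes of this list were called higher, and without cKO library 4 only 1 was. The lists overlap, so that Hcfc1 and Ogt are counted more than once.

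Hcfc1, the HCF-1 gene, was the second partner that was higher. It is X-linked like Ogt (X chromosome, 73942795 to 73966315, 26 exons). The study states that its cross gave male knockouts only. Xist was at 0.0195 to 0.0521 FPKM in control and 0.0277 to 0.0741 FPKM in cKO libraries. The Y-linked gene Uty was at 5.1 to 5.92 and 4.4 to 5.21 FPKM. Control libraries 1 to 4 had 28.0, 25.7, 18.1 and 24.7 FPKM, and cKO libraries 1 to 4 had 34.9, 30.7, 30.2 and 32.0 FPKM. The lowest cKO library was above the highest control library, with 24.1 ± 4.24 FPKM in control and 32.0 ± 2.08 FPKM in cKO hearts (SD, n = 4). The log2 difference was 0.41 (standard error 0.12, 95% interval 0.14 to 0.69, adjusted p = 0.0319 from limma). The wide error came with control library 3, and without it the difference was 0.28 (standard error 0.06, adjusted p = 0.00956). Even for its length Hcfc1 was low in that library, at percentile 5.12 among genes over 6000 bases. The call did not hold when control library 4 or any 1 of the cKO libraries was left out, with adjusted p from 0.0511 to 0.0789, although the direction was kept, and within the prefixes the difference was 0.37 and 0.54.

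The methyltransferase partners of HCF-1 deposit methyl groups on histone H3 at active promoters. Their list also holds Hcfc1, and 12 of its 13 genes were tested. Of these, 3 were higher, Hcfc1 among them, and none was lower, with a median of 0.09. Without Hcfc1, 2 of 11 genes were higher, with a median of 0.07. Among all genes tested, 15.9% were called higher. Dpy30, a core subunit of these enzymes, rose from 82.9 ± 11.1 to 115.8 ± 3.59 FPKM (SD, n = 4), a log2 difference of 0.49 (standard error 0.09, adjusted p = 0.00355 from limma). Its values in control hearts were 77.8, 76.3, 99.5 and 78.0 FPKM, so that control library 3 was high for this gene, in contrast to the partners with long transcripts, and without it the difference was 0.58. Wdr5, another core subunit, rose from 20.9 to 23.2 FPKM (0.15, adjusted p = 0.0221 from limma), and no gene of Setd1a, Setd1b, Kmt2a, Ash2l, Rbbp5, Cxxc1, Wdr82, Men1 and Hcfc2 was called. With Hcfc1 kept in the list, the count of higher genes was 5 without control library 3. It was 1 without control library 4 or without any 1 of the cKO libraries.

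Transcription factors known to act with HCF-1 at promoters gave 3 higher and 1 lower gene among 11 tested, with a median of 0.11. Creb3, a membrane-bound factor that binds HCF-1, rose by 0.42 log2 units, from 23.2 to 31.1 FPKM (adjusted p = 0.00339 from limma), and by 0.49 without control library 3. E2f4, a repressive E2F factor, and Nfya, a subunit of the factor that binds CCAAT boxes, were higher by 0.18 and 0.16, and Sp1, which binds GC boxes, was lower by 0.18 (a log2 difference of -0.18). In the NSL complex, a histone acetyltransferase complex that holds OGT and HCF-1, 9 genes were tested and 2 were called in each direction, namely Hcfc1 and Wdr5 higher and Ogt and Mcrs1 lower. Mcrs1, an NSL subunit, fell from 52.2 to 44.3 FPKM (-0.23, adjusted p = 0.0318 from limma). Control library 3 was its highest control, and without that library the difference was -0.18 (adjusted p = 0.0266 from limma). No NSL gene was called higher without control library 4 or without any 1 of the cKO libraries, and only 1 was called lower without control library 1 or without cKO library 2, 3 or 4.

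Ezh2 was lower in cKO hearts. The gene lies on chromosome 6 from 47530274 to 47595030 and has 20 exons. Control libraries 1 to 4 had 32.0, 32.1, 31.2 and 29.5 FPKM, and cKO libraries 1 to 4 had 25.2, 23.7, 25.8 and 22.5 FPKM. All cKO libraries were below all control libraries, with means of 31.2 ± 1.22 and 24.3 ± 1.49 FPKM (SD, n = 4). Ezh2 fell by 0.35 log2 units (95% interval -0.48 to -0.23, standard error 0.05; limma, adjusted p = 0.00192), and without control library 3 the difference was -0.35 as well. It was -0.34 and -0.33 within the prefixes. Genes of proliferation move with Ezh2 in many tissues. Of 10 listed, 4 were called higher (Cdk1, Mcm2, Rrm2 and Tyms) and none lower, where 15.9% of all genes tested were called higher. Their median log2 difference was 0.057, and those not called included Mki67 (-0.031), Top2a (0.015) and Pcna (-0.123). Summed levels were 687 to 745 FPKM in control and 706 to 810 FPKM in cKO hearts. The part of proliferation in the difference of Ezh2 was not tested.

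Of 11 PRC2 genes tested, Ezh2 alone was called lower and Aebp2, an accessory subunit that binds DNA, was higher (25.5 to 28.6 FPKM, log2 difference 0.17, adjusted p = 0.0438 from limma), with a median of 0.07. The call of Aebp2 was lost with a replicate block, under each scaling alternative, without the filter on low values and without the variance trend. It was also lost with the library label prefix in the model and within prefix OGF373 alone. The same held without control library 1, 2 or 3 or cKO library 2, 3 or 4. Rbbp4, a histone-binding subunit outside the naming rule, was lower in every cKO library than in every control library (-0.13, adjusted p = 0.116 from limma), and 2 genes of the list, Ezh2 and Rbbp4, were called lower with median ratio scaling, without haemoglobin genes or with array weights, and 3 with quantile scaling. Ezh1, the paralog of Ezh2, had 4.75 ± 0.427 FPKM in control and 5.29 ± 0.233 FPKM in cKO hearts (SD, n = 4; log2 difference 0.15, adjusted p = 0.127 from limma). In the PRC1 list, whose complex ubiquitinates the histone that BAP1 acts on, 2 of 19 tested genes were higher (Pcgf3 and Pcgf5, by 0.18 and 0.15) and 2 were lower, among them Pcgf1 (a log2 difference of -0.19), whose call, of the fits that leave out a library, was kept only without control library 1. The 3 named genes encode PCGF subunits, which set the type of PRC1 complex. The 2 higher calls in PRC1 were both lost with a replicate block, under each scaling alternative and without the filter on low values. Neither was found within prefix OGF373 alone, without control library 1 or 2, or without cKO library 2, 3 or 4.

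Genes that Ezh2 is known to keep silent in the mouse heart were mostly too low to be tested. Of 6 listed genes, Hcn4, a pacemaker channel, and Isl1, a progenitor factor, passed the filter and were not called, with log2 differences of -0.12 and 0.07. Cdkn2a, a cell cycle inhibitor, had 0.319, 0.259, 0.239 and 0.136 FPKM in control and 0.402, 0.482, 0.885 and 0.492 FPKM in cKO libraries. Every cKO library was above every control library, though all were under 1 FPKM, and the gene was named after its values were seen. In the limma fit without a filter, its adjusted p was 0.0637. Pax6 was below 0.22 FPKM in every library, and Cdkn2b ranged from 0.643 to 1.10 FPKM in control and from 0.697 to 1.31 FPKM in cKO hearts.

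Sin3a was the second partner that was lower. It is on chromosome 9 from 57072040 to 57128368, with 22 exons. Control libraries 1 to 4 had 18.7, 17.0, 15.9 and 16.3 FPKM, and cKO libraries 1 to 4 had 15.1, 13.8, 14.4 and 13.8 FPKM. The highest cKO library was just below the lowest control library, which was control library 3. Sin3a fell by 0.24 log2 units (95% interval -0.37 to -0.11, standard error 0.06; limma, adjusted p = 0.0142). Without control library 3 the difference was -0.27 (standard error 0.06), and within the prefixes it was -0.23 and -0.20. The call was lost when haemoglobin genes were removed and the libraries rescaled (adjusted p = 0.0683).

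The SIN3-HDAC list had calls in both directions, 3 higher and 3 lower among 19 tested, with a median near 0 (-0.004). Hdac1, a catalytic subunit, fell from 70.1 ± 3.39 to 58.4 ± 3.27 FPKM (SD, n = 4; log2 difference -0.26, adjusted p = 0.00876 from limma), with -0.23 without control library 3. The paralogs Brms1 and Brms1l, both subunits of the complex, moved in opposite directions. Brms1 rose from 15.8 ± 1.09 to 20.6 ± 1.20 FPKM and Brms1l fell from 14.4 ± 0.691 to 10.3 ± 0.887 FPKM (SD, n = 4), with log2 differences of 0.37 and -0.46, and in both the groups did not overlap. Without control library 3 the difference of Brms1 was 0.41, and both directions of the list held 5 calls. The balance moved with scaling, to 3 higher and 6 lower with quantile scaling and 5 lower with median ratio scaling. Phf12, a PHD finger subunit, rose from 14.2 to 18.3 FPKM (0.36, adjusted p = 0.00402 from limma), and Suds3 was also higher (0.15).

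**Figure D3:**
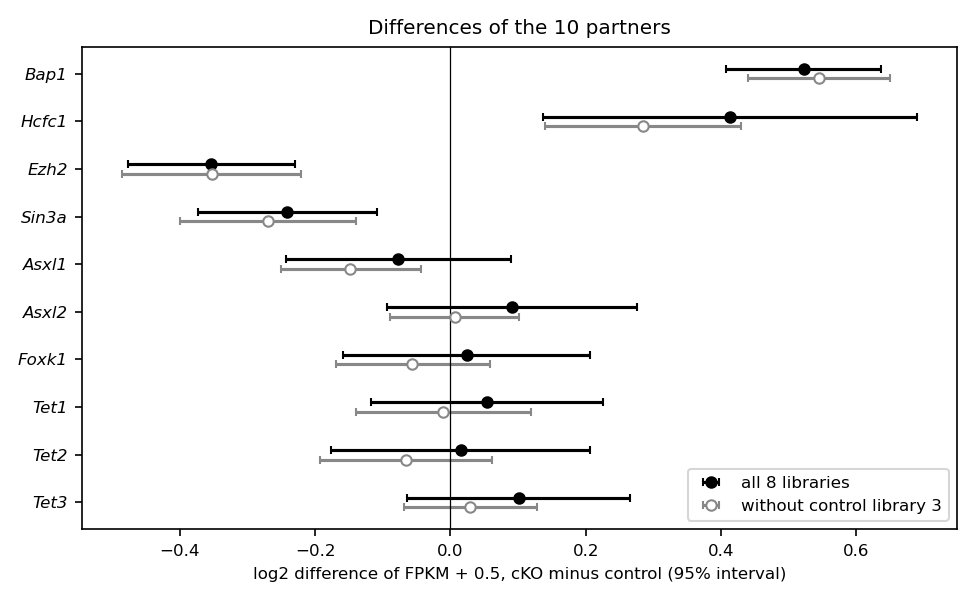
Log2 difference of FPKM + 0.5 between cKO and control hearts (x axis) for each partner, with its 95% interval from limma, for all 8 libraries (black) and without control library 3 (open grey). Bap1 and Hcfc1 are above 0, Ezh2 and Sin3a are below 0, and the interval of Asxl1 leaves 0 only without control library 3.

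The 3 Tet genes were close to each other in their differences. Tet3 (chromosome 6, 83362374 to 83441678) was the most abundant, with 8.75 to 11.0 FPKM in control and 10.4 to 11.4 FPKM in cKO hearts. Tet2 (chromosome 3, 133463677 to 133544390) had 4.31 to 5.63 and 4.84 to 5.65 FPKM, and Tet1 (chromosome 10, 62804570 to 62880014) had 3.21 to 4.01 and 3.57 to 4.05 FPKM. The groups overlapped in all 3 genes. Their log2 differences were 0.10 for Tet3, 0.02 for Tet2 and 0.05 for Tet1 (standard errors 0.07, 0.09 and 0.08), and adjusted p was 0.327 or more in limma. Without control library 3 they were 0.03, -0.07 and -0.01, so that the sign turned for Tet2 and Tet1. Within the prefixes each gene had opposite signs, with -0.06 and 0.21 for Tet3, -0.17 and 0.13 for Tet2 and -0.12 and 0.15 for Tet1. Over the 6 partners that were not called, the separate 95% intervals ran from -0.24 to 0.28 with all 8 libraries. Without control library 3 that of Asxl1 ran from -0.251 to -0.044. Each interval is for 1 gene in the whole heart, and a larger change within a single cell type was not tested.

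Of 12 tested genes of DNA methylation and demethylation, 2 were lower and none was higher. Smug1, a DNA glycosylase that removes oxidised or deaminated bases, fell from 6.94 ± 0.345 to 4.27 ± 0.334 FPKM (SD, n = 4; log2 difference -0.64, adjusted p = 0.000264 from limma). On the scale of FPKM + 0.5 it was the only 1 of 87 tested genes of the 8 complex lists, partners and Ogt left out, that was called with a change of more than 1.5-fold. Cxxc4, a CXXC domain protein that binds unmethylated CpG and is known to act on Tet2 protein, fell from 1.89 ± 0.162 to 1.25 ± 0.124 FPKM (SD, n = 4; log2 difference -0.45, adjusted p = 0.00516 from limma). The DNA methyltransferase genes Dnmt1, Dnmt3a and Dnmt3b were not called.

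Over the 8 complex lists together, 13 of these 87 genes were higher and 8 were lower, 24.1% in all, compared with 30.7% of all genes tested. Their median log2 difference was 0.06. When 1 library was left out, 5 to 17 were higher and 6 to 10 were lower, with the 17 found without control library 3 and 5 to 9 without any other single library.

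**Figure D4:**
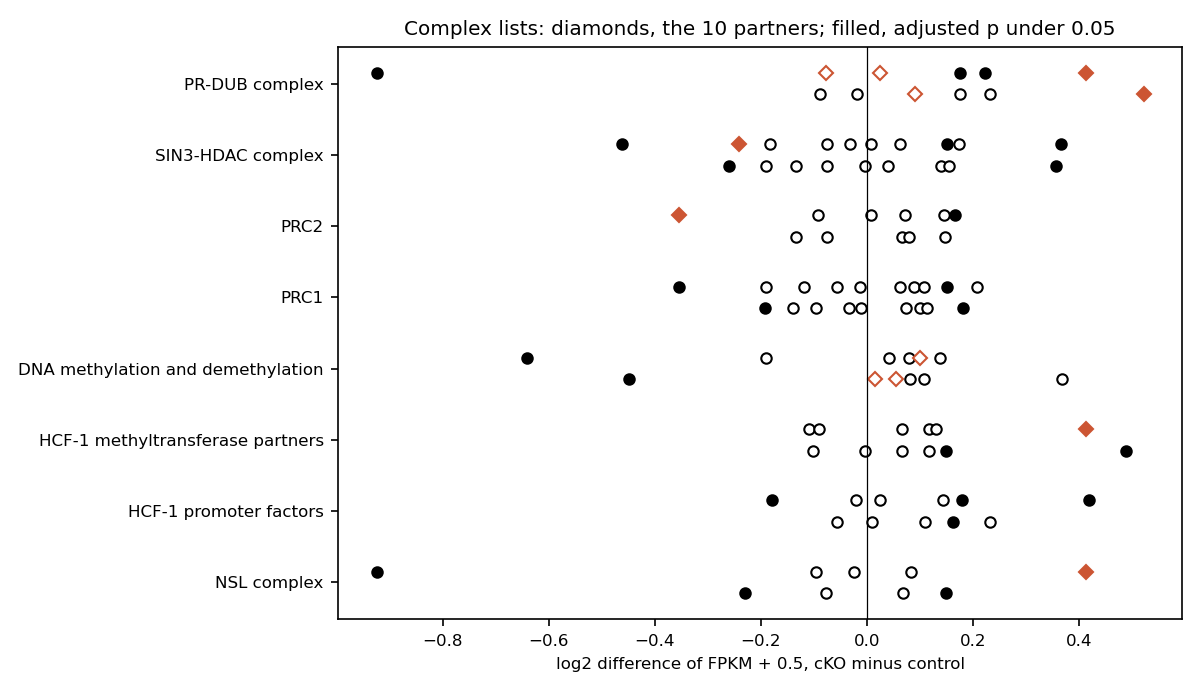
Log2 difference of FPKM + 0.5 between cKO and control hearts (x axis) for each tested gene of the 8 complex lists (y axis, 1 row per list, points set apart vertically only for legibility). Red diamonds are the 10 partners, black circles are other genes and filled symbols were called, and the 2 symbols at -0.92 are both Ogt.

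FPKM are per length, and on that basis levels of different genes are set side by side here. In control library 3 the values still followed transcript length, so the order of genes of unlike length is approximate. An effect of length on the order in the other libraries was not tested. In control hearts the order of mean level was Ezh2, Bap1, Hcfc1, Sin3a, Asxl1, Tet3, Asxl2, Foxk1, Tet2 and Tet1, from 31.2 down to 3.76 FPKM. The control ranges of neighbours overlapped for Bap1 and Hcfc1, and for Asxl2 and Foxk1. For Hcfc1 and Sin3a, and for Tet3 and Asxl2, they overlapped only through control library 3, where Hcfc1 had 18.1 and Tet3 8.75 FPKM. In cKO hearts Bap1 came first, followed by Hcfc1 and Ezh2 (38.4, 32.0 and 24.3 FPKM), and the order of the other 7 was kept. Ezh2 was above Bap1 in each control library and below it in each cKO library.

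The share of a paralog within its family, computed in each library, is not changed by a factor that multiplies a whole library. A shift that depends on transcript length, as in control library 3, need not cancel. The share of Foxk1 in Foxk1 and Foxk2 was 25.6% in control library 3 and 29.1% to 30.5% in the other controls. Ezh2 made up 87.6%, 86.2%, 88.0% and 85.3% of the summed FPKM of Ezh1 and Ezh2 in control libraries, and 82.1%, 82.6%, 83.1% and 80.6% in cKO libraries. The groups did not overlap, and the share was lower by 4.69 points (a difference of -4.69). By a two-sided exact permutation test p was 0.0286, the lowest value possible with 4 libraries per group, and 0.0856 after adjustment over the 6 shares. Tet3 made up 53.4% ± 0.542 of Tet transcripts in control and 54.6% ± 0.682 in cKO hearts (SD, n = 4; exact permutation test, p = 0.0286, adjusted 0.0856), and the groups did not overlap, though with quantile scaling p was 0.0571 with all 8 libraries. Asxl1 made up 62.9% ± 1.68 of Asxl1 and Asxl2 in control and 60.0% ± 1.45 in cKO hearts (SD, n = 4; exact permutation test, p = 0.0571, adjusted 0.0856). Tet1, Tet2 and Foxk1 gave adjusted p of 0.0856 to 0.5143 in the same exact permutation test, and no share passed after adjustment. Foxk2, the paralog of Foxk1, was at 20.2 FPKM in control and 19.0 FPKM in cKO hearts.

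**Figure D5:**
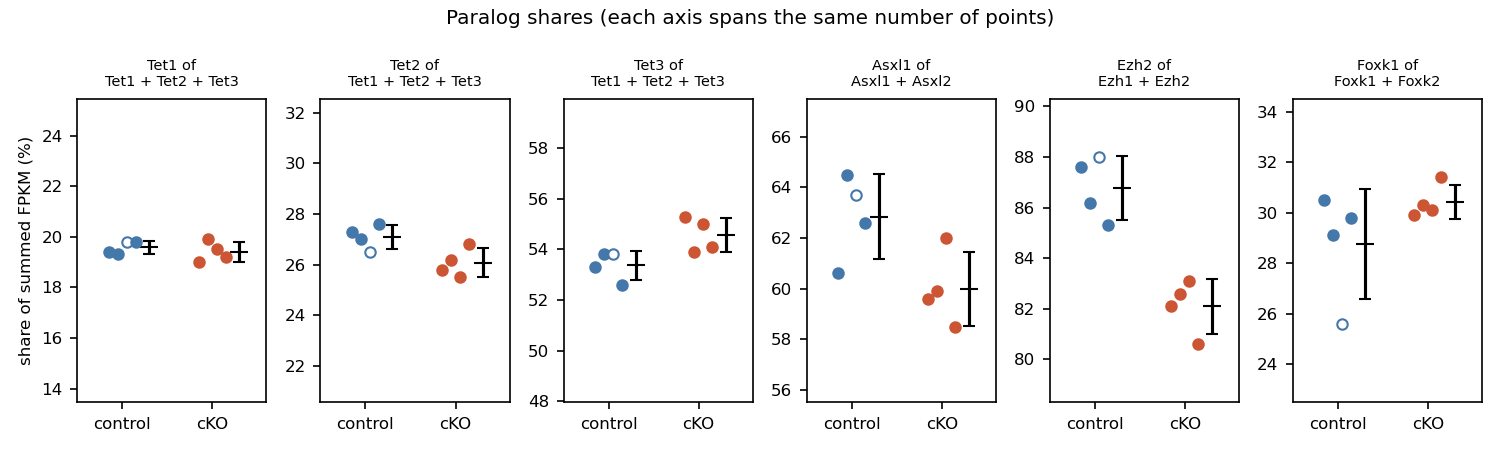
Share of each paralog in the summed FPKM of its family (y axis, percent) in 4 control (blue) and 4 cKO (red) libraries, with the mean ± SD beside each group. Axes do not start at 0 but span equal numbers of points, the open point is control library 3, and the shares of Ezh2 and Tet3 do not overlap between groups.

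The mixture of cells was read from marker lists. Cardiomyocyte markers were abundant in all libraries, with summed levels of 4737 to 5168 FPKM in control and 4326 to 4833 FPKM in cKO hearts, and 0 of 6 were called by limma. Endothelial markers were lower in 4 of 6 (230.6 to 257 against 206 to 218 FPKM summed), with a median log2 difference of -0.22. Epicardial markers were higher in 4 of 6 (167 to 184 against 211 to 247 FPKM), with a median of 0.31. Among all genes tested, 14.9% were called lower and 15.9% higher. Cushion mesenchyme (0 of 4) and erythroid (0 of 6) markers were not called, the latter with summed levels of 17400 to 68730 FPKM in control and 36050 to 53490 FPKM in cKO hearts. Of 6 macrophage markers 3 passed the filter and none was called, with Ptprc at 0.144 to 0.292 FPKM over all libraries. Without control library 3, limma called more of these markers, and also more of all genes tested (4951 of 12619, against 3879 of 12629). Of the cardiomyocyte markers, Myh7 (-0.27) and Ttn (-0.33) were then lower and Nkx2-5 (0.27) was higher, with adjusted p of 0.0362, 0.0396 and 0.0453. The endothelial marker Kdr was lower (-0.38, adjusted p = 0.000337), and the cushion marker Twist1 was higher (0.36, adjusted p = 0.0486). The part of these cell types in the differences of Bap1, Hcfc1, Ezh2 and Sin3a was not tested, and fewer cells of a type cannot be told apart from less RNA per cell.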

How the data were processed

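mRNA libraries were made with a stranded kit, and the methods of the study do not state whether each held 1 heart or a pool. The authors aligned reads to mm10 with TopHat2 and Bowtie2. Versions and gene annotation are not given in the sources used here. The authors deposited FPKM, with text codes for low data or failed estimates in 1.32% of cells. A deposited p-value column holds their own comparison and was not used. FPKM sums were 538581 to 637528 in control and 562190 to 597408 in cKO libraries. Read depth is unknown, so precision rests on the spread among 4 libraries.

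The deposited FPKM were put on a log2 scale after adding 0.5, limma 3.58.1 in R 4.3.3 (2 group means, variance trend) was fitted to entries with a mean of at least 1 FPKM, and a call required an adjusted p (Benjamini-Hochberg, all entries tested) under 0.05. The study used Cuffdiff2 on reads, which FPKM do not allow. Paralog shares were tested by exact permutation, two-sided (scipy 1.17.1), and the scripts were tested on simulated data.

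The partners and lists were chosen with earlier results of these data known. Named were all partners, Ogt and Mgea5, and per complex list up to 4 called genes of smallest adjusted p, or the 2 of highest mean FPKM where none was called. In the table Kmt2a stood as Mll1 and Sinhcaf as Fam60a, and Kmt2b was not matched. The results for 2 listed genes are not reported here. Alternatives were pseudocounts of 0.1 and 1, no filter or at least 5 FPKM, quantile or median ratio scaling, removal of haemoglobin genes, a block for replicate number (replicate block), a covariate for the label prefix, 1 prefix alone, array weights, no variance trend, and leaving out each library. The comparison of control library 3 by length and the neighbour genes were added after seeing the data. Transcript lengths (for 89.0% of genes tested), exons and gene positions were read from the GENCODE annotation and the deposited spans.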

Additional observations from a re-analysis of the deposited data

Results flagged for a closer look

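Of 80 groups of 4 libraries examined among the named genes, 8 held a library far from the other 3, where chance gives about 4. Of these, 4 concerned control library 3, each time as the highest value. Brms1 was 17.5 FPKM there and 15.2 to 15.4 in the other controls, Creb3 was 26.7 against 21.7 to 22.2, Dpy30 was 99.5 against 76.3 to 78.0, and Hdac1 was 75.2 against 68.1 to 68.7 FPKM. In cKO library 1, Tet1 was 3.57 FPKM, below 4.02 to 4.05 in the other cKO libraries. In cKO library 3, Mgea5 was 18.4 FPKM against 17.2 to 17.3, and Isl1 was 3.08 FPKM against 0.658 to 0.807. Hcn4 was 9.15 FPKM in control library 1 against 7.08 to 7.35 in the other controls.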

How the results depend on the processing

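Bap1 was called higher under every alternative run. Of the partners, 1 was called higher, Bap1 alone, without a filter, with quantile scaling, without haemoglobin genes and within prefix OGF373 alone. There Hcfc1 had adjusted p of 0.0907, 0.0556, 0.0813 and 0.0558. Of the lower partners, 1 was called without haemoglobin genes (Ezh2) and 0 within prefix OGF373 alone in limma, where Ezh2 had an adjusted p of 0.0509 and Sin3a of 0.0739; 1465 genes were called there, and 6582 with array weights, against 3879. Array weights also called Asxl1 lower (-0.18, adjusted p = 0.0102). Leaving out 1 library gave 1 to 2 higher partners, 2 to 3 lower partners and 2650 to 4951 genes called. Signs turned for Tet1 (-0.011 without control library 3), Tet2 (-0.017 with array weights, -0.066 without control library 3, -0.017 without cKO library 4) and Foxk1 (-0.043 with array weights, -0.056 without control library 3); without 1 library they ranged from -0.011 to 0.093, -0.066 to 0.051 and -0.056 to 0.079. Of the 87 other complex genes, 8 were higher without a filter, 1 within the prefix alone and 24 with array weights; 5 were lower at a minimum of 5 FPKM, 13 with quantile scaling, 3 within the prefix alone and 21 with array weights; without 1 library, 5 to 17 were higher and 6 to 10 lower. The causes were not tested.

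The replicate numbers were not taken to pair the libraries, since same-numbered libraries correlated at 0.127, 0.158, -0.012 and 0.013. With a replicate block, 3443 genes were called and 8 other complex genes were higher. The rise of the Tet3 share was 1.17 points with quantile scaling (exact permutation test, p = 0.0571 with all libraries), 1.13 within the prefix alone and 0.96 to 1.43 without 1 library; the difference of the Ezh2 share was -4.53 within the prefix alone and -5.19 to -4.19 without 1 library. With fewer libraries these exact permutation tests cannot go below p = 0.0571, or 0.2 within the prefix alone. With quantile scaling 46.3% of called genes were higher, against 51.6%.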
